A study of Homo sapiens with 6 samples.

Results

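The replication-dependent histone genes were examined in KYSE150 cells carrying a control hairpin (shCtrl) or a hairpin against the lncRNA AC007128.1 (shAC007128.1). Members were the protein-coding genes of GENCODE v44 whose symbols are H2AC, H2BC, H3C or H4C followed by a number, together with H1-1 to H1-5. This name rule gave 68 genes, of which 66 were among the 67140 gene identifiers of the deposited table. H2AC18 and H2AC19 were not found under the annotation's identifiers, so their levels were not analysed here. The stem-loop counts below include both, and the promoter counts are not limited to members with a row. The 66 members were 5 H1, 15 H2A, 18 H2B, 13 H3 and 15 H4 genes, and 54 of them lay on chromosome 6, 11 on chromosome 1 and 1 (H4C16) on chromosome 12.

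Replication-dependent histone genes supply the core histones H2A, H2B, H3 and H4 and the linker histone H1 that package newly made DNA in S phase. They sit in clusters, mostly lack introns, and are transcribed under the coactivator NPAT when cyclin E and its kinase become active. Their mRNAs end in a conserved stem-loop bound by SLBP rather than in a poly-A tail, and the tail-less mRNA is destroyed when DNA synthesis stops. Some of these genes also give polyadenylated RNA from a signal further downstream. A library selected on poly-A therefore reads mainly such longer or otherwise tailed forms, and no level below is a measure of the tail-less mRNA that makes up most histone message in dividing cells.

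KYSE150 is an established line of human esophageal squamous cell carcinoma, and 3 samples were sequenced for each hairpin, shCtrl serving as control. All samples were grown in the same medium with serum, and no source used here says whether a hairpin line was 1 clone or a pool, or whether the samples of a group were separate cultures, so p-values measure only the spread between these samples. Total counts were 55764405 to 78610457 per sample, and 3 counts, taken as a floor for reading a level, stood for 0.0373 to 0.0546 CPM (counts scaled to library size and TMM factors). Lower counts did occur, as in H2AC21 with 2 in shCtrl replicate 2 and 1 in shAC007128.1 replicate 3. AC007128.1 itself was at 0.943, 0.410 and 0.781 CPM in shCtrl and at 0.320, 0.674 and 0.258 CPM in shAC007128.1. These groups overlapped, and the log2 fold change of -0.77 ± 0.51 (SE, n = 3 per group) did not pass edgeR's quasi-likelihood test (adjusted p = 0.271). Of 12 squamous epithelial markers, 12 passed the filter on low counts and their summed level was 2260 to 2280 CPM in shCtrl and 2790 to 3650 CPM in shAC007128.1. The 15 markers of other cell types summed to 20.9 to 22.4 CPM and 19.1 to 24.6 CPM, and TYR was at 0 in all samples. In bulk RNA, a changed share of cells in S phase and a changed amount of histone RNA per cell cannot be told apart.

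The stem-loop is the shared feature that decides how a histone mRNA ends, so it was looked for in hg38 in the 100 bases after each stop codon, on the coding strand, as GG, any 3 bases, TTT, any 2 bases, A, any 3 bases and CC. It was present in 65 of the 68 members and in 106 of 19950 protein-coding genes (0.531%). It began between 23 and 63 bases after the stop codon in the members with a table row. H3C6, H2BC10 and H4C13 held no match in this window. The loops below are those of members that stood highest in level or differed most between the hairpins, with the 16 bases of the motif in capitals, 5 bases on each side in lower case, and the gene's strand given.
H2BC11, chr6:27132316-27132341, minus strand: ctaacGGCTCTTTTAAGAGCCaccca
H2BC12, chr6:27146361-27146386, minus strand: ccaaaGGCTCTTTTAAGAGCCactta
H2BC4, chr6:26123467-26123492, minus strand: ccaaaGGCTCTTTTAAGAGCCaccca
H2BC18, chr1:149811880-149811905, minus strand: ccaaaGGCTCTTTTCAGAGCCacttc
H1-2, chr6:26055739-26055764, minus strand: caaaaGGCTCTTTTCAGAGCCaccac
H2AC11, chr6:27133510-27133535, plus strand: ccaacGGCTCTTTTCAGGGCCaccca
H4C9, chr6:27139649-27139674, plus strand: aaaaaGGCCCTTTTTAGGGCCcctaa
H4C15, chr1:149860764-149860789, minus strand: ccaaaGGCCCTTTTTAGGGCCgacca

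The form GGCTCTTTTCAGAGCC was the most frequent and stood in 40 members of the H1, H2A, H2B and H3 classes. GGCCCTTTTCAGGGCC stood in 10 members, all of them H4 genes, and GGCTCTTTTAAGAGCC in 8. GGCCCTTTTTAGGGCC stood in 4, again all H4 genes, and another 3 forms in 1 member each. Stem-loops with the same letters went with different values: H4C9 and H4C15 share theirs and had log2 fold changes of 0.62 and -1.95. At the limits given below, calls differed between forms. The form in 8 members had 6 tested, with 2 higher (H2BC11 and H2BC4), 0 lower and values of -0.62 to 2.18. The most frequent form had 22 tested, with 0 higher, 4 lower and values of -1.77 to 0.75. The form in 10 H4 genes had 5 tested, with 0 higher and 0 lower. That in 4 H4 genes had 4 tested, with 0 higher and 2 lower. Whether calls go with the form was not tested.

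Levels were low and uneven. Of the 66 members, 8 had no count in any sample (H2AC1, H2AC15, H2AC25, H2BC1, H3C11, H4C6, H4C7 and H4C13), and 12, these 8 included, never exceeded 3 counts. edgeR's filter on low counts passed 39 members, and the other 27 were not tested. None of those 27 exceeded 23 counts in a sample, the value of H1-5 in shCtrl replicate 2. Per kilobase of annotated exon, H2BC12 was highest, with a mean of 247 CPM per kb over the 6 samples. H1-2 followed at 71.2, H2AC11 at 35.2 and H4C9 at 29.3 CPM per kb. H2BC11, H2BC5 and H2AC6 lay close together in this mean, at 19.5, 17.2 and 17.1 CPM per kb, although H2BC11 differed severalfold between the hairpins. The highest H3 gene was H3C8 at 11.4 CPM per kb, while the median over the 66 members was 0.727 CPM per kb. The CPM per kb of H2BC12 rests on the 495-base transcript of GENCODE v44, whereas RefSeq extends the gene 8125 bases past the stop codon, so this length-scaled level would be lower on the longer model.

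**Figure D1:**
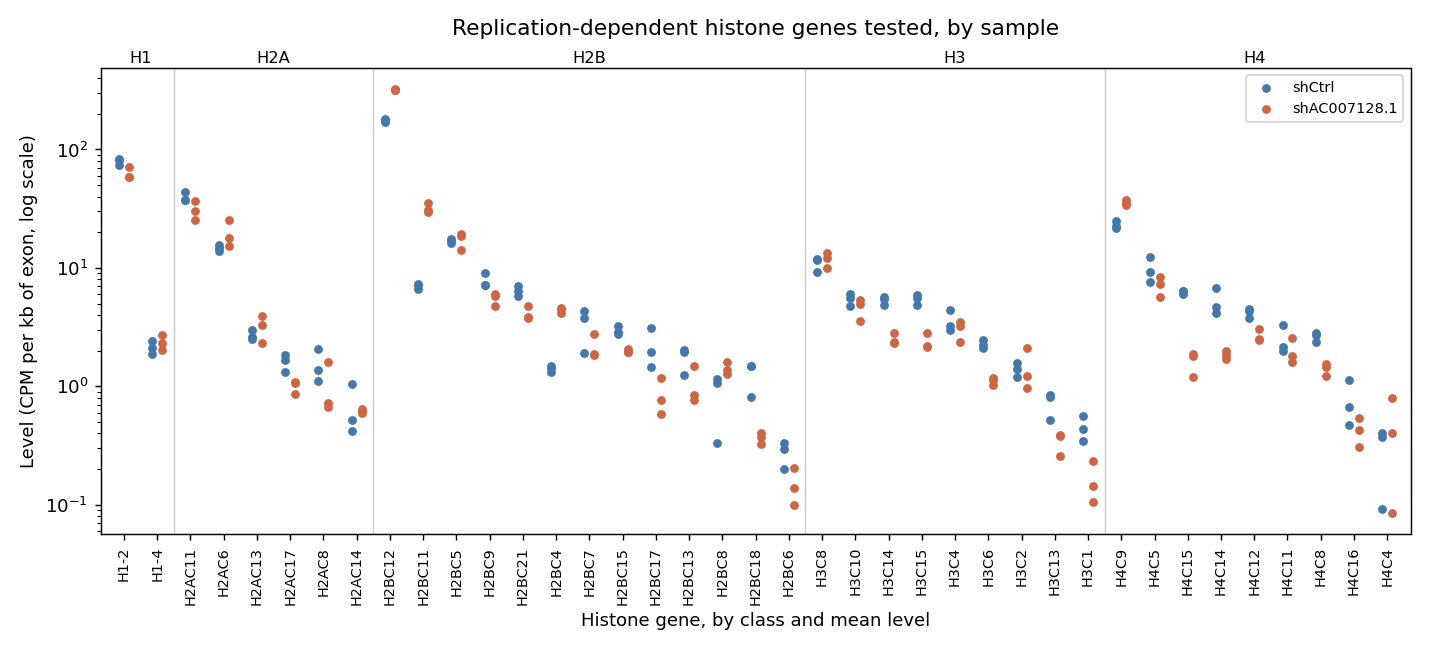
Level of the 39 tested histone genes in each sample, as CPM per kb of annotated exon on a log axis, grouped by class and ordered by mean level. Each point is 1 sample, blue for shCtrl and orange for shAC007128.1, and the points of H2BC12, H2BC11, H2BC4 and H4C9 stand higher in shAC007128.1 while those of H4C15, H4C14, H3C14, H3C15 and H3C6 stand lower.

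Between the hairpins the members split in direction. At an adjusted p of at most 0.05 and a fold change of at least 2, the limits the study set, 2 of the 39 tested members were higher in shAC007128.1 (H2BC11 and H2BC4), against 5.57% of the 19254 genes tested. At the same limits 7 members were lower (H4C15, H2BC18, H4C14, H2BC17, H3C15, H3C14 and H3C6), against 10.1% of all genes tested. The other 30 were not called. With no limit on fold change 4 members were higher (background 21.0%) and 12 lower (background 19.8%). The log2 fold change was negative in 27 members and positive in 12, with a median of -0.50 beside -0.02 over all genes tested, of which 51.3% were negative. All 3 shAC007128.1 samples lay below all 3 shCtrl samples in 17 members (28.2% of all genes tested) and above them in 5 (27.0%).

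Near-identical copies bear on these counts, because the authors' counting could divide or repeat the reads that copies share. In 14 members at least 50% of the 50-base words of the transcripts also occurred in transcripts of other genes, and 13 of these were tested, with 0 higher and 5 lower. DESeq2 and limma-voom also called 0 of them higher, and edgeR gave an unadjusted p under 0.05 to 1 higher member, H2BC12. Among the 42 members with under 10% shared words and no exonic bases shared with another gene, 20 were tested, with 1 higher (H2BC11) and 1 lower (H3C6).

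**Figure D2:**
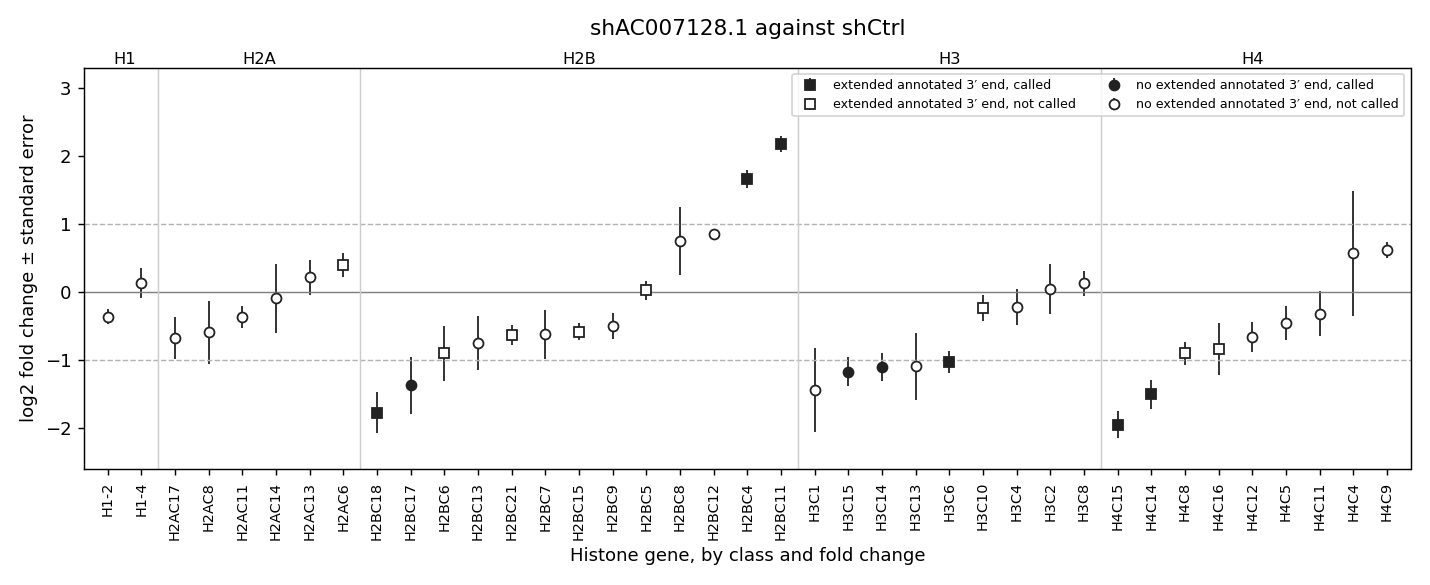
Log2 fold change (shAC007128.1 against shCtrl) with its standard error for the 39 tested histone genes, grouped by class and ordered by fold change. Filled symbols mark the 9 genes called, squares mark genes with an annotated 3′ end at least 200 bases past the stop codon, and dashed lines mark a log2 fold change of 1 in either direction. H2BC11 and H2BC4 stand above the upper line, and the other 7 filled symbols stand below the lower one.

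The H2B genes, whose proteins pair with H2A in the nucleosome, held both members that rose. H2BC11 (ENSG00000124635, chromosome 6, 27125897 to 27132795, minus strand) was at 7.71, 7.0 and 7.5 CPM in shCtrl and at 37.1, 32.0 and 31.2 CPM in shAC007128.1. The groups stood far apart, and H2BC11 rose 4.52-fold (log2 fold change 2.18 ± 0.12 SE, n = 3 per group, adjusted p = 3.24e-05 by edgeR's quasi-likelihood test). It was called higher in all 18 alternative fits, with log2 fold changes of 2.09 to 2.35. H2BC4 (ENSG00000180596, chromosome 6, 26086317 to 26123926, minus strand) was at 4.25, 4.11 and 3.77 CPM in shCtrl and at 12.1, 13.3 and 12.9 CPM in shAC007128.1. It rose 3.15-fold (1.66 ± 0.13, adjusted p = 0.000115 by the same edgeR test), but it shares 890 exonic bases with 2 other annotated genes, and without strand these reads cannot be told apart.

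H2BC12 (ENSG00000197903) carried more counts than any other member. Its level was 89.3, 86.2 and 84.5 CPM in shCtrl and 161, 157 and 156 CPM in shAC007128.1. The groups did not overlap, and the fold change was 1.82 (log2 0.86 ± 0.06, adjusted p = 9.7e-05 by edgeR's quasi-likelihood test), under the fold limit. Its log2 fold change ranged from 0.79 to 1.05 over the 18 alternative fits and passed the limit in 4 of them, those with a GC content or gene length correction. For H2BC12, 57.2% of the 50-base words also occur in other transcripts, so its level is uncertain.

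H2BC18 and H2BC17 fell, the other H2B genes to be called. H2BC18 (ENSG00000203814), one of the chromosome 1 genes, went from 2.65, 1.47 and 2.65 CPM to 0.729, 0.583 and 0.671 CPM (log2 fold change -1.77 ± 0.30, adjusted p = 0.00327 by edgeR's quasi-likelihood test). In H2BC18, 52.8% of the 50-base words occur in other transcripts and 177 exonic bases are shared with another gene, so its level is uncertain. H2BC17 (ENSG00000274641) was at 0.916, 0.684 and 1.44 CPM in shCtrl and 0.356, 0.546 and 0.275 CPM in shAC007128.1. Its log2 fold change of -1.37 ± 0.42 (adjusted p = 0.0366, edgeR's quasi-likelihood test) lost its call in 9 of 18 alternative fits, including those without shCtrl replicate 1 or 3 or without shAC007128.1 replicate 1 or 3.

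H2BC5, among the higher members in level, did not pass the test. It was at 14, 15.2 and 14.7 CPM in shCtrl and 15.9, 16.7 and 12.1 CPM in shAC007128.1, and the groups overlapped. Its log2 fold change was 0.03 ± 0.14, with a sign that turned in 7 of the alternative settings, library size scaling among them. H2BC21 and H2BC15 passed the adjusted p but not the fold limit, at log2 fold changes of -0.63 ± 0.15 and -0.58 ± 0.12. The remaining 5 tested H2B genes, H2BC6, H2BC7, H2BC8, H2BC9 and H2BC13, had mean levels of at most 3.61 CPM in either group and did not pass the test.

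Of the 6 tested H2A genes 0 were called by edgeR's quasi-likelihood test, and 0 had an unadjusted p under 0.05 in that fit or a call by DESeq2 or limma-voom. H2AC11 (ENSG00000196787), the highest H2A gene per kilobase, was at 21.6, 18.3 and 18.6 CPM in shCtrl and at 12.4, 14.9 and 18.2 CPM in shAC007128.1. The highest shAC007128.1 sample lay just under the lowest shCtrl sample, and the log2 fold change of -0.36 ± 0.16 did not pass (adjusted p = 0.113, edgeR's quasi-likelihood test). H2AC6 (ENSG00000180573), which had the most counts of the class, was at 24.7, 23.3 and 26.0 CPM and at 25.3, 42.0 and 30.1 CPM. The shAC007128.1 samples were spread and overlapped shCtrl (0.40 ± 0.18, adjusted p = 0.126 by edgeR's quasi-likelihood test). Over the alternative fits the lowest adjusted p was 0.0225 for H2AC11 and 0.0348 for H2AC6, each by the test of its own fit. Their log2 fold changes there ranged from -0.52 to -0.10 and from 0.17 to 0.58, under the fold limit. H2AC13 and H2AC17 had log2 fold changes of 0.22 ± 0.26 and -0.67 ± 0.31, and H2AC8 and H2AC14 of -0.59 ± 0.46 and -0.09 ± 0.51.

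Of the 9 tested H3 genes 3 fell. H3C6 (ENSG00000274750, chromosome 6, 26224199 to 26227473, plus strand) is one of the few members with no stem-loop match after its stop codon. It was at 5.62, 6.04 and 6.62 CPM in shCtrl and at 3.02, 2.75 and 3.15 CPM in shAC007128.1, or 48.8% of control. The log2 fold change was -1.03 ± 0.16 (adjusted p = 0.00189 by edgeR's quasi-likelihood test), close to the fold limit. Its value ranged from -1.11 to -0.91 over the alternative fits and missed the limit in 4 of 18, among them those without shCtrl replicate 3 (-0.98) or without shAC007128.1 replicate 2 (-0.98).

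H3C14 and H3C15 are near-identical copies on opposite strands of chromosome 1 that share 99.2% and 100% of their 50-base words with other transcripts, so neither can be read alone. Together they held 6.01, 5.06 and 5.75 CPM in shCtrl and 2.35, 2.95 and 2.36 CPM in shAC007128.1, 45.5% of control. Taken singly they had log2 fold changes of -1.10 ± 0.20 and -1.17 ± 0.21 (adjusted p = 0.00387 and 0.00414 by edgeR's quasi-likelihood test). H3C14 missed the fold limit under the GC content and gene length corrections, and H3C15 under the GC content correction.

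H3C8 and H3C10, the highest H3 genes per kilobase, did not pass the test. H3C8 was at 4.56, 5.87 and 5.73 CPM in shCtrl and at 4.98, 6.66 and 6.06 CPM in shAC007128.1 (log2 fold change 0.13 ± 0.18). H3C10 was at 7.46, 6.92 and 5.96 CPM and at 6.17, 4.48 and 6.69 CPM (-0.23 ± 0.19). In both genes the groups overlapped.

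The H4 genes encode an almost invariant protein, with 14 of the 15 coding regions of the class giving the same amino acids. H4C15 (ENSG00000270276) and H4C14 (ENSG00000270882), a further pair of chromosome 1 copies with 100% shared words, both fell. Together they held 19.8, 24.7 and 20.1 CPM in shCtrl and 7.08, 6.92 and 5.45 CPM in shAC007128.1, 30.1% of control. Their own log2 fold changes were -1.95 ± 0.20 for H4C15 and -1.50 ± 0.21 for H4C14 (adjusted p = 0.000322 and 0.00129 by edgeR's quasi-likelihood test), and both kept the call in all 18 alternative fits.

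H4C9 (ENSG00000276180) went the other way. It was at 8.65, 9.87 and 9.04 CPM in shCtrl and at 14.9, 13.4 and 14 CPM in shAC007128.1. The groups did not overlap, and the 1.53-fold difference (log2 0.62 ± 0.12, adjusted p = 0.00531 by edgeR's quasi-likelihood test) was under the fold limit. H4C8 was at 6.10, 5.82 and 5.17 CPM and at 3.18, 2.64 and 3.32 CPM, and its log2 fold change of -0.90 ± 0.17 (adjusted p = 0.0049, edgeR's quasi-likelihood test) was also under it. H4C12 passed the adjusted p alone at -0.66 ± 0.22, and H4C5 did not pass at -0.45 ± 0.25.

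Linker histone reads came almost wholly from 1 gene. H1-2 (ENSG00000187837) made up 96.9% of the class in shCtrl and 95.9% in shAC007128.1. It was at 60.9, 60.1 and 54.4 CPM in shCtrl and at 51.8, 42.7 and 42.4 CPM in shAC007128.1. The 3 shAC007128.1 values were all under the lowest shCtrl value, but the difference was small (log2 -0.36 ± 0.11, adjusted p = 0.0315 by edgeR's quasi-likelihood test). H1-4 had a mean level of 1.68 CPM in shCtrl and 1.85 CPM in shAC007128.1, and its groups overlapped (log2 fold change 0.14 ± 0.22). H1-1, H1-3 and H1-5 were too low to test, with H1-5 at 1, 23 and 12 counts in shCtrl and 4, 8 and 5 counts in shAC007128.1.

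Summed by class, levels went in different directions. All members together held 335, 334 and 323 CPM in shCtrl and 393, 395 and 384 CPM in shAC007128.1, 118% of control, and H2BC12 made up 26.2% of that sum in shCtrl and 40.4% in shAC007128.1. The H2B sum went from 150 ± 2.81 to 243 ± 5.71 CPM (SD, n = 3), 162% of control. The H4 sum went from 45.2 ± 2.28 to 29.8 ± 0.763 CPM (65.9%), the H3 sum from 27.1 ± 0.715 to 19.8 ± 0.858 CPM (73.2%) and the H1 sum from 60.3 ± 3.66 to 47.6 ± 5.53 CPM (78.9%). In these 4 classes the samples of the groups did not overlap. The H2A sum overlapped, at 47.7 ± 2.33 and 51.0 ± 10.1 CPM.

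These sums lean on single genes. Without H2BC12 the H2B sum was 63.4 ± 2.15 CPM in shCtrl and 85.0 ± 3.15 CPM in shAC007128.1, 134% of control. That sum still held H2BC11 (mean 7.4 and 33.4 CPM) and H2BC4 (4.05 and 12.8 CPM). Of the 13 tested H2B genes, 8 had negative and 5 positive log2 fold changes, with a median of -0.58. Without H4C15 the H4 sum was at 79.9% of control, and without H3C10 the H3 sum at 69.1%. H4C14, the copy of H4C15, stayed in that H4 sum. The pair held 21.5 of 45.2 CPM in shCtrl and 6.48 of 29.8 CPM in shAC007128.1. Nearly all of the net fall in the H4 sum therefore lay in this pair. Without H1-2 the H1 sum was at 104%, with means of 1.87 CPM in shCtrl and 1.95 CPM in shAC007128.1 and overlapping groups. Without H2AC6 the H2A sum was at 80.3%, whereas the full H2A sum, at 107%, had overlapped. The sign of the log2 ratio turned in both classes, but neither shows a reversal. The member with the most counts in H4 was H4C15 in shCtrl (25.9% of the class) and H4C9 in shAC007128.1 (47.3%).

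**Figure D3:**
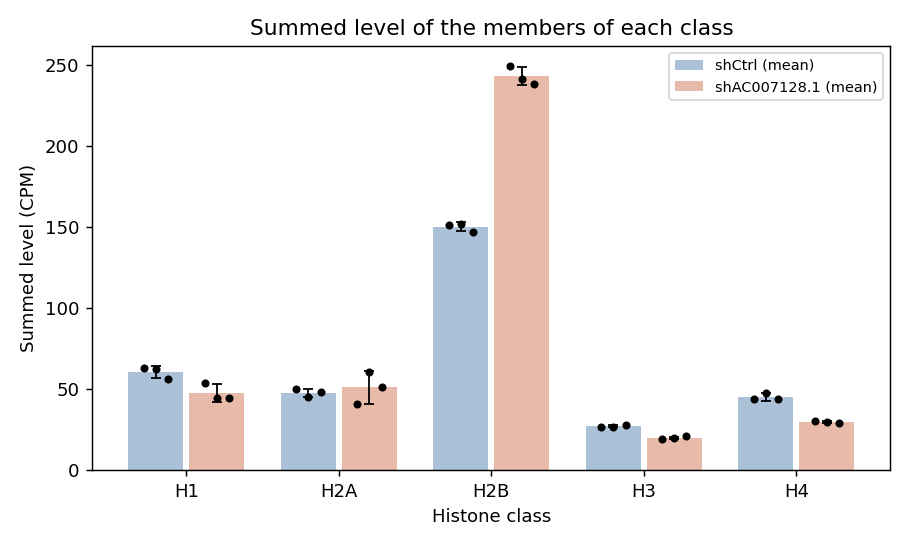
Summed level of the members of each histone class, in CPM, for shCtrl (blue) and shAC007128.1 (orange). Bars are means of 3 samples, error bars are SD, and points are single samples. The H2B bars stand at 150 and 243 CPM, and the H1, H3 and H4 bars are lower in shAC007128.1.

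The members differed by place in the genome. On chromosome 1, 7 of 11 members were tested, 5 of them fell, and in all 7 the highest shAC007128.1 value was under the lowest shCtrl value, with a median log2 fold change of -1.17. Over all genes tested 10.1% were called lower and 28.2% had groups that stood apart in this direction. On chromosome 6, 31 of 54 members were tested, 2 rose and 2 fell, and the median was -0.32. The chromosome 1 genes include the near-identical H3C14, H3C15, H4C14 and H4C15, and H2BC18 shares much of its sequence with other transcripts, so their values are not separate measurements. The grouping by chromosome was made after the values were seen and was not tested.

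The members also differed in their annotated 3′ ends. In 17 of the 66 members with a row, GENCODE v44 places a transcript end at least 200 bases past the stop codon, and in 14 of these 17 an AATAAA poly-A signal stands in the last 50 bases of a transcript. In the other 49 members the annotated ends lie less than 200 bases past the stop codon, and 2 of these 49 have AATAAA there. AATAAA stands in that window in 63.4% of 20046 protein-coding canonical transcripts. The members were scored on any of their annotated transcripts, so these shares are not on the same measure. The signal also need not stand at the extended end. The median level was 2.47 CPM per kb with an extended end and 0.359 CPM per kb without. Among the members that passed the filter on low counts, these medians were 3.22 and 2.75 CPM per kb. The 4 highest members, H2BC12, H1-2, H2AC11 and H4C9, have no extended end in GENCODE v44, and the highest member with one, H2BC11, was at 19.5 CPM per kb. The summed level in shCtrl was 122 CPM with an extended end and 208 CPM without. With H2BC12 counted as extended by its RefSeq end, these sums were 209 and 121 CPM, so their order depended on the annotation. Of the 17, 14 passed the filter, 2 rose (H2BC11 and H2BC4) and 4 fell (H2BC18, H3C6, H4C14 and H4C15), beside 5.57% higher and 10.1% lower over all genes tested. Of the 49, 25 passed, 0 rose and 3 fell by edgeR. DESeq2 and limma-voom also called 0 of the 49 higher, and 2 (H2BC12 and H4C9) were higher at an unadjusted p under 0.05. The length-scaled levels depend on the annotated lengths, which are greater for the extended genes.

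Many H2A and H2B genes lie head to head and share the DNA between their starts. There were 12 such pairs of opposite strand with starts 170 to 251 bases apart, and 5 had both genes tested. In the H2BC11 and H2AC11 pair, starts 248 bases apart, the log2 fold changes were 2.18 and -0.36. In the H2BC4 and H2AC6 pair they were 1.66 and 0.40, in H2BC8 and H2AC8 0.75 and -0.59, in H2BC13 and H2AC13 -0.75 and 0.22, and in H2BC17 and H2AC17 -1.37 and -0.67. In 3 of the 5 pairs the signs were opposite, but H2BC11 was the only gene of these 3 pairs to pass the test. Standard errors were 0.50 for H2BC8, 0.46 for H2AC8, 0.40 for H2BC13 and 0.26 for H2AC13. H2BC12, 251 bases from H2AC12, was the highest member per kilobase, while H2AC12 had at most 18 counts and was not tested.

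**Figure D4:**
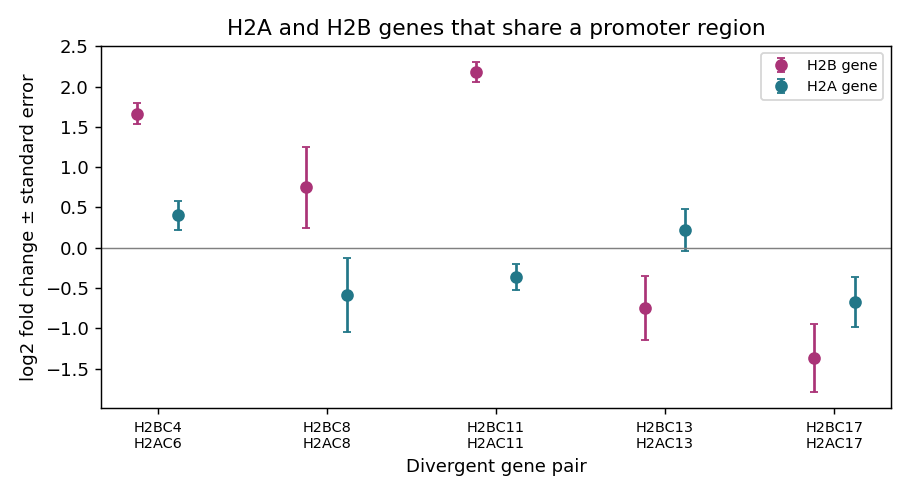
Log2 fold change with its standard error for the H2B gene (magenta) and the H2A gene (teal) of the 5 head-to-head pairs in which both were tested. H2BC11 stands at 2.18 and its partner H2AC11 at -0.36, while both genes of the H2BC17 and H2AC17 pair are below 0.

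The shared starts carry promoter letters that the name rule did not use. RefSeq promoters (GRCh38, 250 bases before to 50 after the start) were matched for 63 members and searched on both strands. The octamer ATTTGCAT, the site known for OCT1 at H2B genes, stood in 14 of 18 H2B and 11 of 16 H2A promoters, in 1 of 11 H3 promoters and in none of the 5 H1 or 13 H4 promoters, against 1.77% of all promoters. CCAAT stood in 53 of 63 members (34.61% of all promoters) but in 3 of 13 H4 promoters, and TATAAA in 42 of 63 (11.53%). The H3 promoter with the octamer was that of H3C4, and its site at chr6:26199405-26199412 is the one also counted for H2AC7 and H2BC7. GENCODE v44 places H3C4 at 26196784 to 26197286 on the minus strand, so the site is not next to its start there. A match describes letters and shows no binding. The octamer sites of the H2B members that rose, of H2BC12, which stood highest in level, and of H2BC18, which fell, are given with the octamer in capitals and 8 bases on each side.
H2BC11 and H2AC11, chr6:27132827-27132850, minus strand: ttcaccttATTTGCATaagcgatt
H2BC12, chr6:27146889-27146912, minus strand: ttcaccttATTTGCATgagaggtc
H2BC4 and H2AC6, chr6:26124034-26124057, minus strand: catacctcATTTGCATagctctgc
H2BC18, chr1:149812404-149812427, minus strand: gagtcttcATTTGCATacgggctc

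H2BC11, H2BC12 and H2BC18 have the octamer at nearly the same distance before their starts, at -47, -46 and -49, and had log2 fold changes of 2.18, 0.86 and -1.77. The site between H2BC11 and H2AC11 lies at -47 from the first and -208 from the second.

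The replacement histones are made throughout the cell cycle, mostly from genes with introns and ordinary poly-A tails, so poly-A libraries read them more directly. Of 12 such genes 11 were tested and H3-5 was at 0 in all samples. H2AZ1, which encodes the variant H2A.Z, rose from 93.5, 99.7 and 92.5 CPM to 225, 199 and 211 CPM (log2 fold change 1.15 ± 0.08, adjusted p = 6.1e-05 by edgeR's quasi-likelihood test). H2AJ fell from 56.5, 51.9 and 52.2 CPM to 26.8, 23.4 and 12.8 CPM (-1.35 ± 0.25, adjusted p = 0.00459 by edgeR's quasi-likelihood test). The median of the 11 was 0.33, where that of the replication-dependent genes was -0.50.

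Among the other replacement histones, those that passed the adjusted p without the fold limit included H2AZ2 (log2 fold change 0.66 ± 0.06), CENPA (0.52 ± 0.13), which marks centromeres, H2AX (0.33 ± 0.06), which is phosphorylated at DNA breaks, and MACROH2A1 (0.22 ± 0.07). H3-3A and H3-3B, which encode H3.3, were at 0.37 ± 0.13 and 0.34 ± 0.12 and did not pass. MACROH2A2 (-0.52 ± 0.29) and H1-10 (-0.31 ± 0.19) did not pass either, and H1-10 turned to 0.02 under the GC content correction. H2AX is the one gene of this list that also holds the stem-loop motif after its stop codon.

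The genes that serve histone supply had mostly positive log2 fold changes. The lists overlap, with SLBP and CASP8AP2, for instance, also among the S phase markers, so their counts are not of separate sets of genes. Of 42 S phase markers tested, 26 rose and 0 fell, all 42 log2 fold changes were positive, and the median was 1.16. DESeq2 and limma-voom also called 0 of them lower, and 0 were lower at edgeR's unadjusted p under 0.05. PCNA, the sliding clamp of DNA polymerase, was at 75.9, 74.2 and 73.2 CPM in shCtrl and at 222, 225 and 250 CPM in shAC007128.1 (1.64 ± 0.07). MCM6, a subunit of the replicative helicase, was at 1.95 ± 0.08 and the transcription factor E2F8 at 2.31 ± 0.09. The share of the members' differences that goes with S phase was not tested.

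Of 12 genes that drive histone transcription 4 rose (CDC25A, CCNA2, E2F1 and CCNE2, with log2 fold changes of 2.06, 1.99, 1.87 and 1.77) and 0 fell, with a median of 0.60. DESeq2 and limma-voom likewise called 0 lower, and 0 were lower at an unadjusted p under 0.05. NPAT, the coactivator of histone loci, was at 28.9, 37.7 and 30.2 CPM in shCtrl and at 55.9, 58.1 and 67.6 CPM in shAC007128.1. Its groups did not overlap, but its log2 fold change of 0.91 ± 0.13 (adjusted p = 0.0015 by edgeR's quasi-likelihood test) was under the fold limit, which it passed without shCtrl replicate 2 (1.03). CASP8AP2, a component of histone locus bodies, was at 0.57 ± 0.13 and was also under it.

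Of 22 genes for the 3′ processing of histone mRNA, 0 rose and 1 fell, with a median of 0.32. DESeq2 and limma-voom also called 0 higher, while 13 were higher at edgeR's unadjusted p under 0.05. The one that fell was CDK9 (-1.20 ± 0.09), the kinase that releases paused RNA polymerase, and it missed the fold limit under the GC content correction with and without the replicate block. SLBP, which binds the stem-loop, was at 49.1, 39.0 and 37.3 CPM in shCtrl and at 68.0, 69.0 and 88.3 CPM in shAC007128.1. The groups did not overlap, and the log2 fold change of 0.85 ± 0.15 (adjusted p = 0.00358 by edgeR's quasi-likelihood test) was under the fold limit. Of the U7 snRNP proteins, LSM11 was at 0.87 ± 0.10, SNRPD3 at 0.94 ± 0.09 and LSM10 at -0.32 ± 0.17, the last of which did not pass the test, while SNRPD3 passed the fold limit without shCtrl replicate 2 (1.02). ZNF473, a zinc finger protein that binds the U7 complex, was at 45.6, 44.3 and 16.0 CPM in shCtrl and 27.6, 25.7 and 28.3 CPM in shAC007128.1, so that shCtrl replicate 3 alone lay below shAC007128.1.

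Of 14 genes for the decay and translation of histone mRNA, 0 rose and 1 fell (MIF4GD, -1.06 ± 0.14, a partner of SLBP in translation). DESeq2 called 0 higher and limma-voom 1, and 9 were higher at edgeR's unadjusted p under 0.05. EXOSC10, a nuclease of the exosome, was at 0.92 ± 0.10 and PNRC2, a decapping factor, at 0.98 ± 0.13. Both passed the adjusted p and not the fold limit, though PNRC2 did without shCtrl replicate 1 (1.05). MIF4GD missed the fold limit without shAC007128.1 replicate 1 (-0.96) or shCtrl replicate 3. It also missed the limit under the GC content and gene length corrections, each with and without the replicate block. Its log2 fold change ranged from -1.13 to -0.85 over the alternatives. Of 28 histone chaperones and import factors 9 rose and 0 fell, with a median of 0.58. DESeq2 and limma-voom also called 0 lower, and 1 was lower at an unadjusted p under 0.05. ASF1B, which carries new H3 and H4, was at 19.8, 21.6 and 19.2 CPM in shCtrl and at 81.8, 83.4 and 71.3 CPM in shAC007128.1 (1.96 ± 0.10). CABIN1 of the HIRA complex was at 1.53 ± 0.08 and MCM2 at 1.10 ± 0.06. The background shares were 5.57% higher and 10.1% lower, and the lists were chosen with earlier results of these samples known.

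**Figure D5:**
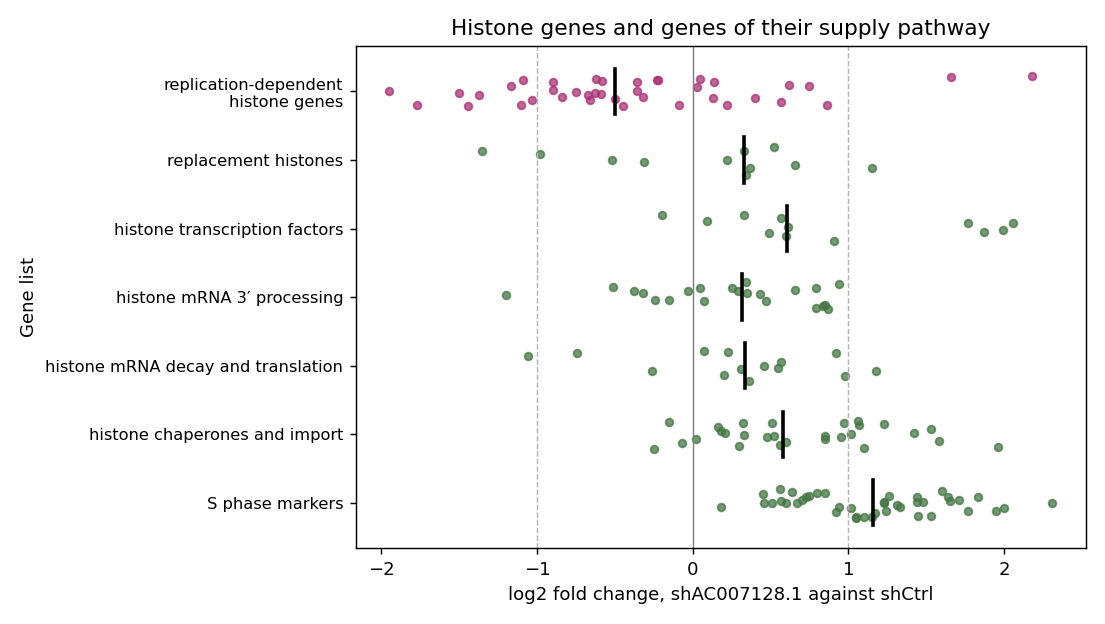
Log2 fold change of the tested genes of the replication-dependent histone genes (magenta) and of 6 related lists (green), with the median of each list as a black bar and dashed lines at 1 in either direction. The bar of the histone genes stands at -0.50 and that of the S phase markers at 1.16.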

How the data were processed

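Poly-A RNA of 6 KYSE150 samples was sequenced as paired-end TruSeq libraries. The authors used TopHat v2.0.9 on hg38 and Cufflinks v2.1.1 for FPKM, whereas the submitters' processing notes name CASAVA 1.8 and TopHat2 2.0.6, and list mm10 beside GRCh38. The deposited table, made by the authors, gives each Ensembl gene an estimated count, rounded to whole numbers and not normalized. The counting program, annotation and use of strand are not given in the sources used here. Low values pile up at multiples of 4: in shCtrl replicate 1, 761, 1355 and 993 genes had counts of 3, 4 and 5.

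Samples were grouped by their titles, since the treatment text of the labels names shAC007128.1 for all samples. Of the identifiers, 60357 (89.9%) were found in GENCODE v44 on hg38, whose positions, symbols and exon lengths were used. filterByExpr removed 47886 identifiers. TMM factors were 0.967 to 1.042, and edgeR 4.0.16 (glmQLFit and glmQLFTest, R 4.3.3) tested shAC007128.1 against shCtrl with no covariate and Benjamini-Hochberg adjustment over 19254 genes. Standard errors are the log2 fold change over the root of F. The steps were tested on simulated counts. The 3-count level covers counting error only.

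The members and lists were chosen with earlier results of these data known. Genes given in full were, per class, the 3 with the highest CPM per kb and the 3 with the smallest p, and per related list the 3 with the smallest p, with NPAT, CASP8AP2, SLBP, ZNF473, LSM10, LSM11 and the replacement histones. A few list genes are not reported here. Other genes named, H2BC17 and H2BC18 among them, were chosen after their values were seen. Alternatives were DESeq2 1.42.0, limma-voom (limma 3.58.1), other scalings, filters and limits, GC content and length corrections, the replicate block, counts divided by 4 and each sample left out. Class sums without their leading member were added after seeing the data.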

Additional observations from a re-analysis of the deposited data

How the results depend on the processing

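With no limit on fold change, 4 members were higher and 12 lower, and all genes called came to 4041 higher and 3820 lower. The related lists, each gene counted once, held 92 calls in either direction, against 40 with the limit. With the replicate block, 2 members were higher and 6 lower. Same-numbered samples had deviations correlated at 0.031, -0.025 and -0.03, so the numbers were not taken to pair the samples. The block together with the GC content correction or with the gene length correction left 4 members lower in each fit. The median log2 fold change of the members was -0.35 with the GC content correction and -0.36 with the length correction and block. Leaving out each sample in turn gave 2 members higher and 5 to 8 lower. By library size only, the log2 ratio of summed levels was 0.17 for all members, 0.62 for H2B and -0.53 for H3. Sums without the member with the most counts in shCtrl were scaled with TMM factors. Their log2 ratio was 0.42 for H2B, -0.53 for H3 and -0.32 for H4. It was 0.06 for H1 and -0.32 for H2A, both turned in sign, though the groups overlapped in that H1 sum and in the full H2A sum. The H4 value still held H4C14, the copy of H4C15.

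Among single genes near 0, H2BC5 turned negative with DESeq2 (-0.00), with no filter (-0.02), with scaling by library size (-0.05), with a minimum of 10 counts per sample (-0.01) and without shCtrl replicate 1 (-0.01), shAC007128.1 replicate 1 (-0.03) or 2 (-0.06), and stood between -0.06 and 0.15 over the samples left out. H1-10 turned to 0.02 with the GC content correction and 0.01 with the block added, and H3-4 to 0.12 without shAC007128.1 replicate 1, with -1.04 to 0.12 over the samples left out. The causes were not tested. Over named genes and settings, 1046 values kept direction and side of the threshold, 42 newly passed it, 19 no longer did and 10 turned. Members with means under 1 CPM in both groups had standard errors of 0.31 to 0.92 on the log2 scale and none was called.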

Other observations

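Histone pseudogenes of the same clusters were read as well, and both were chosen after their values were seen. H2BC20P (ENSG00000261716, chromosome 1, 149850193 to 149850772) was at 14, 15.7 and 16.1 CPM in shCtrl and at 6.12, 5.73 and 7.60 CPM in shAC007128.1, and fell by 1.23 ± 0.15 on the log2 scale (adjusted p = 0.000716 by edgeR's quasi-likelihood test, n = 3 per group). H2BC19P (ENSG00000220323, chromosome 1, 149843041 to 149843533) was at 13.5, 13.0 and 10.6 CPM and at 5.14, 5.93 and 6.38 CPM, and fell by 1.09 ± 0.16 (adjusted p = 0.00148 by the same test). Both lie between H3C14 and H4C15 on chromosome 1 and stood, at 18.7 and 18.5 CPM per kb, above every replication-dependent histone gene tested on that chromosome. They resemble each other and nearby H2B genes, so reads shared among copies cannot be told apart.

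Of the cluster histones that the name rule leaves out, H2BC12L and H3-4 were tested and 0 were called by edgeR, DESeq2 or limma-voom or had an unadjusted p under 0.05, at log2 fold changes of 0.66 ± 0.75 and -0.45 ± 1.09. Of the squamous epithelial markers, KRT6A and KRT14 rose (2.46 ± 0.10 and 2.28 ± 0.10), SOX2 was at 0.434 and 4.60 CPM, and DSG3 fell by 1.09 ± 0.09. Of the markers of other cell types 1 of 9 tested was called, ACTA2, from 3.40 to 1.43 CPM, and it missed the fold limit without shAC007128.1 replicate 1 (-0.99).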
